A study of Danio rerio with 21 samples.

Results

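The chemokine gene cxcl12b was followed through sorted cells of zebrafish embryos. It is 1 of the 3064 genes with a row in at least 1 of the 3 comparison tables, and was taken by its symbol. It was chosen by its measured values, namely its large difference between haemogenic endothelium and aortic roof endothelium and its level in morphants. Its levels in both contrasts are therefore given as a description, with no test, and only other genes are tested. All embryos carried TgBAC(runx1P2:Citrine) and Tg(kdrl:mCherry), in which a bacterial artificial chromosome with the P2 promoter of runx1 drives Citrine and the kdrl promoter drives mCherry in endothelium. Morphants (MO) had received a runx1 morpholino, while wild-type (Wt) embryos were not injected, so that the effect of the injection and that of runx1 loss cannot be told apart in the MO groups. Clutches were split between the injected and the non-injected arm, pooled and staged to 28 to 30 hours post fertilisation (hpf), and whole embryos were dissociated for sorting. The groups were MO-DP-R1hi, that is double-positive cells with high Citrine from morphants, Wt-DP-R1hi, the same gate in Wt embryos (haemogenic endothelium, HE), Wt-DP-R1lo, double-positive cells with low Citrine (aortic roof endothelium, ARE), and the double-negative cells MO-DN and Wt-DN. The paper counts the sprouting intersomitic vessels with the ARE. Each group held 3 libraries of at least 3000 cells, made with SMARTer chemistry from 2.2 ng of RNA.

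Cxcl12, also called Sdf1, is a secreted chemokine that signals through the G protein-coupled receptor Cxcr4 and is also bound by Ackr3, which clears it. In mammals it is made by stromal cells of the bone marrow and holds blood stem cells in their niche. Zebrafish have duplicated genes for ligand and receptor, cxcl12a and cxcl12b, and cxcr4a and cxcr4b. The axis guides migrating cells such as the lateral line primordium and germ cells of the zebrafish embryo, and it takes part in the assembly of the aorta.

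Marker genes of the gates were listed first. In HE, gfi1aa, a repressor of endothelial genes, was at 205, 136 and 242 CPM (read counts scaled to a library of fixed size), against 4.22, 2.83 and 8.51 CPM in ARE. Of 23 haemogenic transcription factor genes 13 had a row for HE against ARE, of which 9 were higher and 4 lower in HE. Of all 2732 genes with a row there, 1099 were higher. The summed level of the 13 was 2112 to 2436 CPM in HE, against 1226 to 1663 CPM in ARE. The endothelial receptor gene kdrl was at 11.2, 7.69 and 26.1 CPM in HE, against 78.7, 102 and 194 CPM in ARE. Genes listed as markers of other tissues were also measured in ARE, and are given below beside cxcl12b. Effective libraries ran between 9.72 M and 22.6 M reads, taking the smallest step of the CPM values as 1 read. Levels in bulk RNA do not separate a smaller number of cells of a type from less RNA per cell.

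The comparison of HE with ARE asked what sets the floor of the aorta, where blood stem cells arise, apart from its roof with the intersomitic sprouts. cxcl12b was low in HE and abundant in ARE. It was at 1.67, 3.26 and 1.55 CPM in HE, against 263, 199 and 290 CPM in ARE. With 1 CPM step taken as 1 read, which the few low values in the tables could not settle, these levels came to 27, 56 and 30 reads in HE, against 3613, 3299 and 4706 reads in ARE. The 2 groups were far apart, and the lowest ARE library exceeded the highest HE library 60.8-fold.

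The means were 2.16 ± 0.956 CPM in HE and 251 ± 47.1 CPM in ARE (SD, n = 3 each), and the ARE mean was 116-fold higher. On the scale of log2(CPM + 1), used for every log2 difference below, HE minus ARE was -6.34 (SE 0.25), and this scale understates the change of a gene that is so low in HE. On this scale it was the largest fall among the 2732 genes listed in the table, where the median difference was -1.0. The first place was not held under every setting. With a pseudocount of 5, cxcl12b was at position 3, at -5.15, after col1a2 at -5.36 and mafbb at -5.26, and without HE replicate 1 it was at position 2, at -6.23, after col1a2 at -6.26. Of the genes in that table, 98.1% had groups that did not overlap, since only genes called by the authors are listed, so the lack of overlap says nothing particular about cxcl12b.

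The next genes in the order were led by collagen genes. col1a2, a chain of type I collagen, was at 8.46, 6.59 and 3.52 CPM in HE, against 508, 402 and 440 CPM in ARE, a log2 difference of -6.03. The large Maf transcription factor gene mafbb followed at -5.87, the collagen genes col1a1a and col1a1b at -5.82 and -5.66, and the apelin receptor gene aplnra at -5.44. Of the 5 genes after cxcl12b, 3 thus code for chains of type I collagen.

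**Figure D1:**
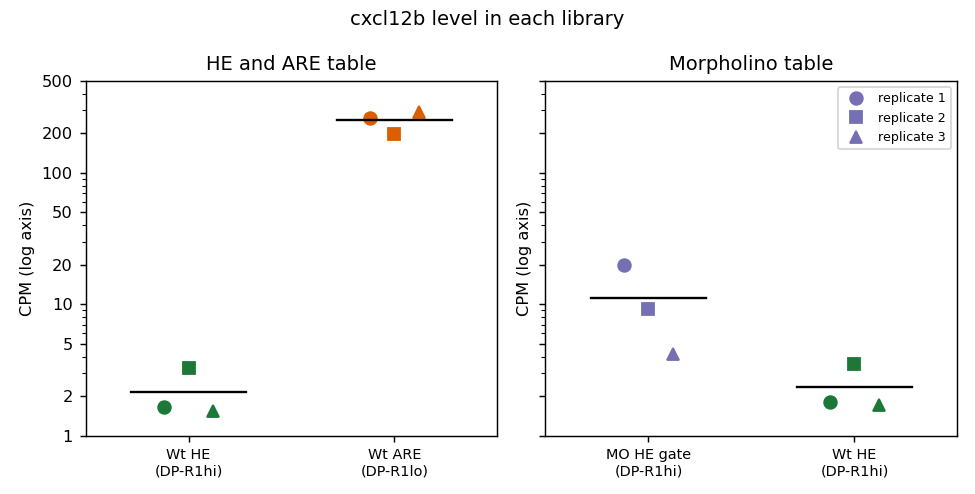
cxcl12b in CPM (log axis) in each library, with HE and ARE at the left and MO and Wt libraries of the DP-R1hi gate at the right; symbols mark replicate numbers and lines mark group means. ARE libraries lie between 199 and 290 CPM and HE libraries between 1.55 and 3.26 CPM, while MO libraries spread between 4.22 and 19.9 CPM.

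The morphant comparison asked what changes in the HE gate when runx1 is knocked down. cxcl12b was higher in every MO library than in any Wt library, but the MO libraries were spread widely. It was at 19.9, 9.24 and 4.22 CPM in MO-DP-R1hi, against 1.80, 3.51 and 1.70 CPM in Wt-DP-R1hi. On the same reading of the steps the reads numbered 246, 138 and 41 in MO libraries, against 27, 56 and 30 in Wt libraries. MO replicate 1 stood highest and MO replicate 3 close to the Wt range. The lowest MO value was 1.2 times the highest Wt value, and their 95% Poisson intervals, which rest on these estimated reads and cover counting error only, overlapped at 3.03 to 5.72 CPM for MO replicate 3 and 2.65 to 4.56 CPM for Wt replicate 2.

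The means were 11.1 ± 8.02 CPM in MO and 2.34 ± 1.02 CPM in Wt (SD, n = 3 each), a ratio of 4.76. Without MO replicate 1 the MO mean was 6.73 CPM and the ratio 2.88. The log2 difference MO minus Wt was 1.68 (SE 0.50), which placed cxcl12b at position 125 from the top of 676 listed genes, whose median was 1.02. The position was 222 without MO replicate 1, 63 without MO replicate 3, 80 without Wt replicate 2 and 206 with a pseudocount of 5. Between libraries with the same replicate number the ratio was 11.1, 2.63 and 2.48. Of the genes listed in this table, 93.2% had groups that did not overlap. On either side in the order lay vegfc, a ligand of VEGF receptors, at 1.67 and bloc1s4, a subunit of the BLOC-1 complex of endosomes, at 1.68.

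Ordered by level, ARE was highest for cxcl12b at 251 CPM, MO-DP-R1hi came next at 11.1 CPM, and Wt-DP-R1hi was lowest, at 2.16 CPM in the HE and ARE table and 2.34 CPM in the morpholino table. The tables were scaled separately, and the same Wt-DP-R1hi libraries were 1.08, 1.08 and 1.1 times higher in the morpholino table for all 397 genes in both. ARE was apart from both other groups by far more than the spread between libraries. The SD of the MO libraries was 72.1% of their mean, and MO replicate 3 came near the Wt range. The MO mean was 4.44% of the ARE mean, and ARE was 22.5-fold higher. The same share was 46.7% for cxcr4a, 62.9% for ccr12a, 66.9% for ccl34a.4 and 71.0% for cmklr1, the other chemokine genes in both tables. These shares were set across tables and were not tested. cxcl12b was chosen for its large fall, and the other 4 are listed because they were called among morphants. The contrast thus depends on how the genes were chosen. Among genes with large falls, col1a2 averaged 450 CPM in ARE and 28.2 CPM in MO, and col1a1a 170 and 9.54 CPM. A low MO level beside ARE is hence not particular to cxcl12b. cxcl12b has no row among the 176 genes of the DN table and was not analysed in DN cells, nor in the single-positive and DP-R1med gates.

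Of the Cxcl12 axis itself, the paralog cxcl12a, cxcr4a and cxcr4b were listed for HE against ARE, and the 2 receptors differed in direction. All 3 passed the limma test (adjusted p under 0.05, Benjamini-Hochberg over the genes the authors tested), as did 94.5% of listed genes, since the genes were preselected on these libraries. A pass is hence no independent evidence. Reads of paralogs can be split or lost in counting, which was not tested.

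The second ligand gene, cxcl12a, was at 2.60, 2.21 and 11.4 CPM in HE, against 118, 91.4 and 151 CPM in ARE. It was low in every HE library, with HE replicate 3 above the other 2. The log2 difference was -4.50 (SE 0.45, limma adjusted p = 4.13e-05). The receptor gene cxcr4a was at 6.43, 1.57 and 3.16 CPM in HE, against 24.4, 26.1 and 26.7 CPM in ARE, a log2 difference of -2.63 (SE 0.36, limma adjusted p = 3.36e-04). Its ARE libraries were nearly equal and all above the HE libraries.

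The other receptor gene, cxcr4b, went the opposite way. It was at 650, 478 and 531 CPM in HE, against 418, 295 and 322 CPM in ARE, and was higher in each HE library than in any ARE library. The log2 difference was 0.68 (SE 0.16, limma adjusted p = 0.00795). In this fit, which leaves pairing out, the call was lost without HE replicate 1 (limma adjusted p = 0.0527). With the replicate number as a block and all libraries, the limma adjusted p was 9.70e-05. The scavenger receptor genes ackr3a and ackr3b have no row in the tables and were not analysed here. In CPM, HE libraries were thus low for both ligand genes and higher for cxcr4b than ARE libraries.

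In the morpholino table, cxcr4a was the only other listed gene of the axis. It was at 12.9, 7.90 and 15.2 CPM in MO, against 6.93, 1.69 and 3.46 CPM in Wt. The groups did not overlap, and the log2 difference of 1.46 (SE 0.44) did not pass (limma adjusted p = 0.171, and 0.0570 with the replicate number as a block). Its order among MO libraries was not that of cxcl12b, since MO replicate 3 was highest for cxcr4a and lowest for cxcl12b.

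**Figure D2:**
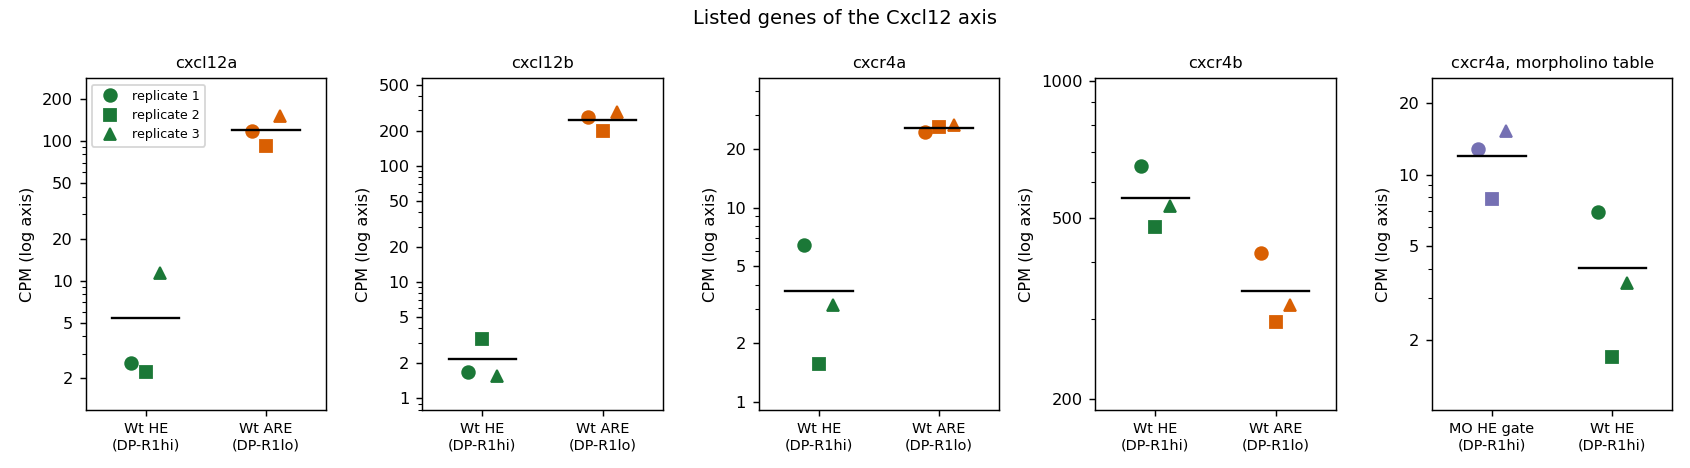
Listed genes of the Cxcl12 axis in CPM (log axes that differ between panels), 1 symbol per library and a line at each group mean, in HE and ARE for the first 4 panels and in MO and Wt DP-R1hi for the last. Both ligand genes and cxcr4a are higher in every ARE library than in any HE library, and cxcr4b is higher in every HE library, at 478 to 650 CPM.

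Of the chemokine ligand and receptor genes that were listed, most were higher in ARE. Besides cxcl12b, 9 were listed for HE against ARE, of which 8 were lower and 1 was higher in HE, and all 9 passed. Their median log2 difference was -3.02, beside -1.0 for all listed genes. Of all genes in the table, 56.5% passed as lower and 38% as higher.

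The ligand gene ccl34a.4 was at 13.04, 7.58 and 12.9 CPM in HE, against 328, 353 and 230 CPM in ARE, a log2 difference of -4.66 (SE 0.24). Its fall and that of cxcl12a, at -4.50, were within their SEs of each other, and their order turned without HE replicate 3 (-4.77 for ccl34a.4 and -5.12 for cxcl12a), without ARE replicate 2 and with a pseudocount of 0.1. The receptor gene ccr12a was also lower in HE, at -3.76, as were cmklr1, which codes for a receptor of chemerin, at -3.06, cxcl18b, a ligand that draws neutrophils in zebrafish, at -3.02, and ccl19b, whose mammalian counterpart binds CCR7, at -2.76. The receptor gene cxcr3.2 had the smallest difference, at -0.57 (limma adjusted p = 0.0231, and 0.00302 with the replicate number as a block). Without the block, the call was lost without HE replicate 1 or 3 or ARE replicate 2 (limma adjusted p = 0.0917, 0.104 and 0.0912). After rescaling by median ratios, which moved the median of all listed genes by 0.79, cxcr3.2 stood at 0.28 and had changed sign. Rescaling rests on listed genes alone, all called as changed by the authors. It thus has no unchanged reference and cannot settle this sign. Relative to the deposited median of -1.0 the fall of cxcr3.2 was smaller than that of the table as a whole.

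In the MO table, 5 chemokine genes were listed besides cxcl12b, of which 3 passed as higher and 1 as lower, beside 26.3% and 15.1% of listed genes. ccl34a.4 was at 168, 167 and 274 CPM in MO, against 14.1, 8.16 and 14.1 CPM in Wt, a log2 difference of 3.96 (SE 0.29, limma adjusted p = 1.30e-04). The MO libraries were all far above the Wt libraries, with replicate 3 the highest. ccr12a rose by 3.05 (limma adjusted p = 0.00779) and cmklr1 by 2.47 (limma adjusted p = 0.00140). ccr9a, whose mammalian counterpart is the receptor for CCL25 and guides precursors to the thymus, was at 116, 128 and 101 CPM in MO, against 369, 339 and 345 CPM in Wt, a log2 difference of -1.61 (SE 0.17, limma adjusted p = 0.00103). These 4 calls held without each library in turn, with the block and after rescaling. No chemokine gene was listed among the 176 genes of the DN table.

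Most listed myeloid markers differed in the direction of ccl34a.4, ccr12a and cmklr1, but ccl34a.4 is itself on that list. Of 7 listed myeloid markers, 6 were lower in HE than in ARE, all passing, beside 56.5% of all listed genes passing as lower. mpeg1.1, a macrophage marker, differed by -4.24. Among MO libraries 6 of 8 were higher, all passing, beside 26.3% of listed genes passing as higher, with mfap4 at 3.38 and mpeg1.1 at 2.58. The neutrophil gene mpx passed as lower, at -1.42. That call was lost without MO replicate 3, Wt replicate 1 or Wt replicate 2 (limma adjusted p = 0.0608, 0.120 and 0.0982). The summed level of the listed markers was 653 to 752 CPM in HE, against 1354 to 1819 CPM in ARE, and 3586 to 5326 CPM in MO, against 6144 to 8151 CPM in Wt, so that the sum for the morpholino comparison went against its macrophage members. The part of macrophages in the chemokine values was not tested.

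**Figure D3:**
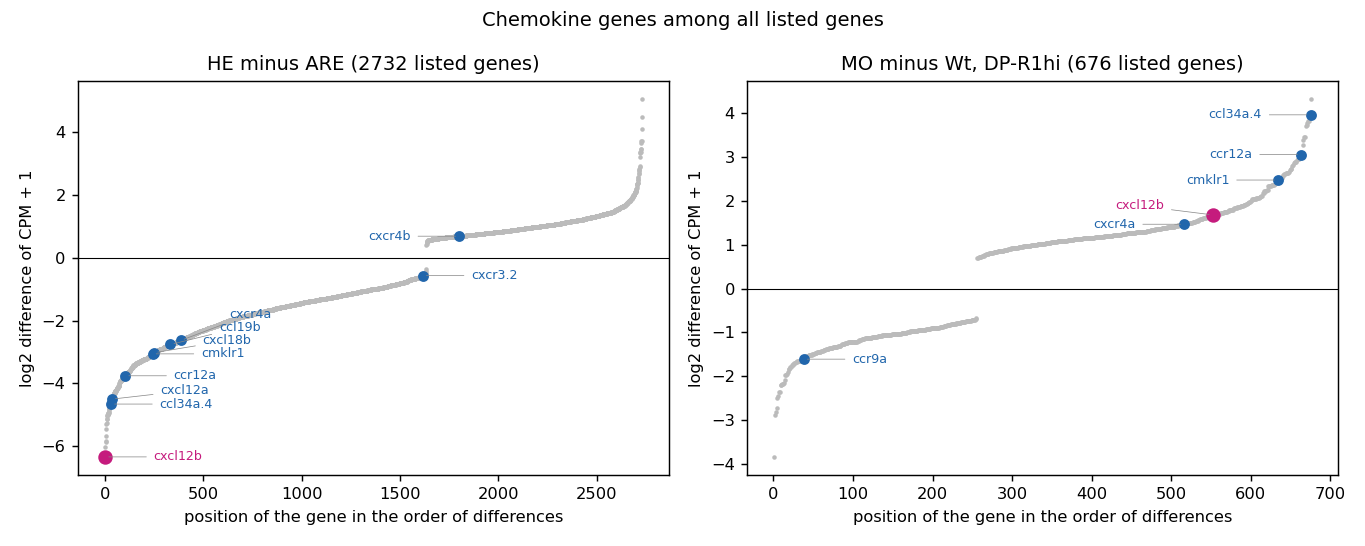
Log2 differences of CPM + 1 for all listed genes (grey) in rising order, HE minus ARE at the left and MO minus Wt in DP-R1hi at the right, with chemokine genes in blue and cxcl12b in magenta. cxcl12b is the lowest point at -6.34 at the left and lies inside the upper part of the order, at 1.68, at the right.

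The pathway downstream of the receptors was listed in part. Of 75 genes for G protein subunits, regulators, arrestins and the Akt, Rac and Elmo steps of chemokine receptor signalling, 19 were listed for HE against ARE. All 19 passed, 6 as higher and 13 as lower in HE, with a median difference of -1.25, close to that of all listed genes. Of all listed genes 94.5% passed, 38% as higher and 56.5% as lower, so the counts are near those of the whole list. The small GTPase gene rac1a (-3.06), the G protein subunit gene gnb2 (-2.34) and the G protein regulator gene rgs3a (-1.90) were lower in HE. The kinase gene akt3a (1.4) and elmo1 (0.81), a partner of the Rac activator Dock, were higher, and akt3a lost its call without HE replicate 2 (limma adjusted p = 0.0539). Without that library 2 genes passed as higher and 10 as lower, and 3 passed as higher without ARE replicate 1. After rescaling 6 passed as higher and 5 as lower. For MO against Wt, 4 were listed, of which rgs2 passed as higher (1.41) and rgs13 as lower (-0.95); neither passed without any 1 of the 3 Wt libraries.

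Other genes for niche signals and adhesion were also lower in HE for the most part. Of 69 genes 22 were listed besides cxcl12b, of which 16 passed as lower and 5 as higher, with a median of -2.61, beside 56.5% of all listed genes passing as lower and 38% as higher. The growth factor gene igf2b fell by 4.77 and tek, the receptor for angiopoietins, by 4.52, while kitlga, a ligand of Kit, was at -2.29. Its mean was 0.579 CPM in HE and 6.56 CPM in ARE. The receptor gene for thrombopoietin, mpl, and the adhesion gene selp were higher in HE, at 2.76 and 1.84. For MO against Wt, 8 of the list had a row. csf1ra, the macrophage receptor for Csf1, rose by 2.5 and tfec, a transcription factor gene, by 2.61, whereas angpt1, the ligand of Tek, fell by 3.84 and mpl by 2.80. selp, at -1.96, passed (limma adjusted p = 0.0365) but lost its call without each library in turn other than MO replicate 2. With the block csf3b and il6 also passed, so that 4 in place of 2 were higher. igf2a was the only listed gene of this list in DN cells, where it was higher in MO (3.27, limma adjusted p = 0.00857), and its call was lost without Wt-DN replicate 1 (limma adjusted p = 0.209) and after rescaling (0.107).

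Arterial genes shared the direction of cxcl12b. Of 39 genes, 27 were listed for HE against ARE, of which 26 passed as lower and 1, sox17, as higher. Their median was -2.63, the value of cxcr4a, which is thus on this list as well as on the axis. Of all listed genes 56.5% passed as lower and 38% as higher, with a median of -1.0. The summed level was 138 to 337 CPM in HE, against 1255 to 2466 CPM in ARE. dll4, a Notch ligand of arteries, was at 29.3, 17.1 and 63.0 CPM in HE, against 108, 77.4 and 171 CPM in ARE. HE replicate 3 was the highest of the HE libraries for dll4 and kdrl, but not for cxcl12b, which was highest in HE replicate 2. After rescaling dll4 no longer passed (limma adjusted p = 0.0877).

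For MO against Wt, 9 arterial genes were listed, of which 8 were higher. Of all 676 listed genes 421 were higher and 26.3% passed as higher. Of the 9 arterial genes only dlc and sox17 passed, at 1.89 and 1.90, a share near that of all listed genes. With the block 6 arterial genes passed, which added aqp8a.1, efnb2b, vegfc and hey2. As higher, none passed without Wt replicate 1, without Wt replicate 2 or after rescaling, 1 passed with any 1 MO replicate left out, and 5 passed without Wt replicate 3. The summed level was 303, 168 and 291 CPM in MO, against 91.2, 63.4 and 137 CPM in Wt. MO replicate 3 was thus near the top for arterial transcripts and lowest for cxcl12b.

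Genes listed as venous, stromal or epidermal markers were also higher in ARE for the most part. Of all listed genes 56.5% passed as lower in HE, with a median of -1.0. Of 15 listed venous and lymphatic genes 13 passed as lower in HE, among them stab1, a scavenger receptor gene, at -5.12. Their median was -4.09, beside -2.63 for the arterial list, and their sum was 141 to 243 CPM in HE, against 2142 to 4223 CPM in ARE. Of 11 listed sclerotome, neural crest and fibroblast markers all were lower in HE and 10 passed, with a median of -4.43, and their sum was 41.7 to 82.1 CPM in HE, against 1413 to 1858 CPM in ARE. pdgfra, a defining marker of these tissues, has no row in the tables. The paper reports low pdgfra levels in its sorted populations. From this and other markers it proposes that contamination by other tissues was minimal and lay mostly in the single-positive gate. All 14 listed epidermis and periderm markers passed as lower in HE, and their sum was 143 to 271 CPM in HE, against 1596 to 3936 CPM in ARE. Of 17 listed neural markers 16 passed as lower, with a median of -1.73, while 9 passed after rescaling, and their sum was 116 to 175 CPM in HE, against 444 to 643 CPM in ARE. Of 26 muscle markers only myl13 and tnnt2a were listed, and their sum was 1.42 to 1.76 CPM in HE, against 4.58 to 25.2 CPM in ARE. Of 22 pronephros, gut and liver markers only 2 were listed, and both passed as lower in HE. Their sum was 28.6 to 72.3 CPM in HE, against 1070 to 1802 CPM in ARE. Most of it came from the cathepsin gene ctsla, at 26.6 to 71.5 CPM in HE and 1051 to 1796 CPM in ARE. The sum thus says little about these tissues. The part of stromal, epidermal, neural, muscle, pronephros, gut or liver cells in the cxcl12b values was not tested. The keratin gene krt4 was at 25.02, 7.05 and 18.5 CPM in HE, against 1592, 156 and 1003 CPM in ARE. krt4 thus varied widely among the ARE libraries, where cxcl12b lay between 199 and 290 CPM. The stromal sum was 1810, 1413 and 1858 CPM in ARE replicates 1, 2 and 3. Its order among these libraries was that of cxcl12b. The venous, neural, niche and arterial sums, among others, had the same order, the arterial sum at 1500, 1255 and 2466 CPM. This order thus does not single out any list. The epidermal sum was highest in replicate 1 and the myeloid sum in replicate 2. With 3 libraries no relation between these levels could be tested.

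In the MO table few of the same markers passed. Of all 676 listed genes 421 were higher in MO, and 26.3% passed as higher. Of 5 listed stromal markers 4 were higher in MO and 2 passed, col1a2 at 1.98 and tfec at 2.61, and 4 passed with the block. tfec is also on the list of niche genes above, so it is not particular to the stromal list. The call of col1a2 was lost without MO replicate 2 or Wt replicate 2 (limma adjusted p = 0.0552 and 0.0616) and after rescaling (0.277). Their summed level was 92.0, 103 and 67.8 CPM in MO, against 38.8, 29.4 and 27.3 CPM in Wt. All 8 listed epidermal markers were higher in MO but only icn passed, at 2.52, while 6 passed with the block and 5 without MO replicate 3. icn lost its call without Wt replicate 2 (limma adjusted p = 0.0673). The venous, the muscle, and the pronephros, gut and liver lists each had 1 listed gene in this comparison. The venous gene, at 1.03, and the muscle gene, at -1.36, did not pass. The pronephros, gut and liver gene, ctsla, passed as higher, at 2.09.

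The epidermal sum was 3531, 1366 and 600 CPM in MO, against 223, 140 and 275 CPM in Wt. Its order among MO libraries was that of cxcl12b, with replicate 1 highest and replicate 3 lowest. The sum of the DNA damage genes, given below, had this order too, as did ctsla, the 1 listed gene of the pronephros, gut and liver list. krt4 was at 2397, 874 and 18.4 CPM in MO, against 27.0, 7.59 and 20.3 CPM in Wt, so that MO replicate 3 lay within the Wt range. Among Wt libraries the order differed, since replicate 2 was lowest for krt4 and highest for cxcl12b. With 3 libraries a group, no relation between these levels could be tested.

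Stress transcripts also marked the morphants. All 10 listed genes of the DNA damage response were higher in MO-DP-R1hi and 6 passed, beside 26.3% of listed genes passing as higher. Their summed level was 3960, 2915 and 2522 CPM in MO replicates 1, 2 and 3, which is the order of cxcl12b. It was 641 to 670 CPM in Wt. Only 2 passed after rescaling, and 4 without Wt replicate 1 or 2. In DN cells all 12 listed were higher in MO and 10 passed, beside 19.3% of listed genes, while 5 passed without Wt-DN replicate 1. Their part in the cxcl12b values was not tested. Primitive erythroid genes were higher in MO-DP-R1hi too. All 10 listed were higher and 9 passed, beside 26.3% of listed genes passing as higher. Their sum was 108262 to 170698 CPM in MO, against 38339 to 50165 CPM in Wt. All 6 listed for HE against ARE passed as higher in HE, beside 38% of listed genes. The part of erythroid RNA in the cxcl12b values was not tested.

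**Figure D4:**
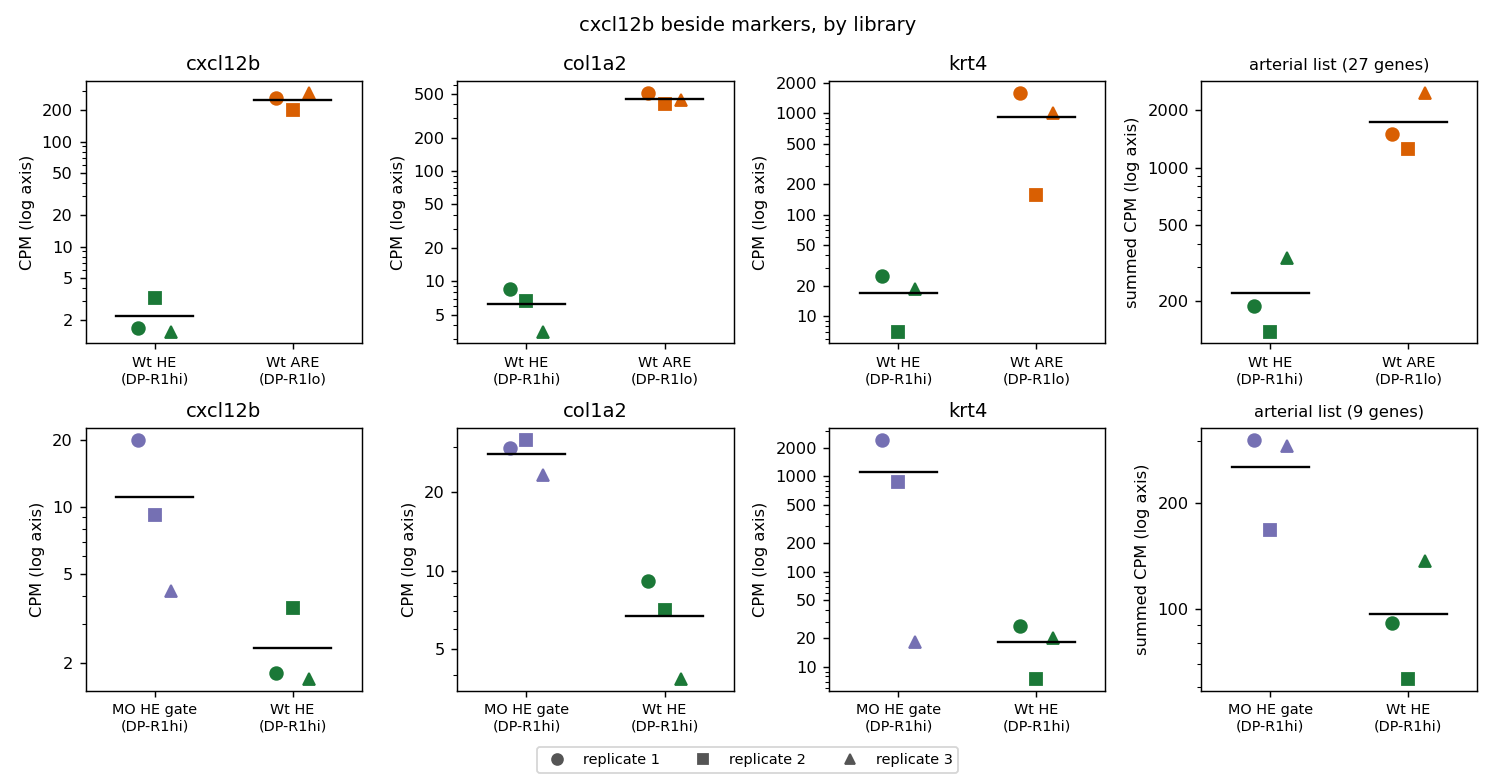
cxcl12b, col1a2, krt4 and the summed arterial list in each library, in CPM on log axes that differ between panels, with HE and ARE above and MO and Wt DP-R1hi below; lines are group means. Within the MO group, replicate 3 is lowest for cxcl12b (4.22 CPM) and krt4 (18.4 CPM) and close to the highest for the arterial sum (291 CPM).

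The gene whose profile was most like that of cxcl12b was fzd7b, and 2 collagen genes were among the 8 most alike. Likeness was Pearson's r across 12 values of log2(CPM + 1) from 9 libraries, the Wt-DP-R1hi libraries being counted in both tables, with each value set relative to the Wt-DP-R1hi mean of its table. It was computed for the genes in both tables, and is a description, since the gap between ARE and the other libraries dominates it. The median r was 0.79, and 98 genes lay above 0.9.

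The highest r was that of fzd7b, a Wnt receptor gene, at 0.989. Its mean was 3.69 CPM in HE and 35.7 CPM in ARE, and 8.08 CPM in MO and 4.01 CPM in Wt, so that it shared the shape of cxcl12b and not its size. The tetraspanin gene cd151l (0.983), col1a2 (0.980), fkbp9, a prolyl isomerase gene (0.980), pmp22a, a membrane protein gene of the peripheral myelin family (0.977), col1a1a (0.976), angptl7, a secreted angiopoietin-like protein gene (0.975), and the Eph receptor gene epha2a (0.974) followed. These values do not set the 8 apart from each other.

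By Euclidean distance, which also counts the size of the differences, col1a2 was nearest and col1a1a next, and 4 of the 8 were among the 8 nearest. col1a2 averaged 28.2 ± 4.44 CPM in MO and 6.69 ± 2.66 CPM in Wt (SD, n = 3 each), and its 3 MO libraries were closer together than those of cxcl12b. col1a1a averaged 9.54 ± 4.62 CPM in MO and 2.41 ± 1.67 CPM in Wt, and did not pass (limma adjusted p = 0.169, and 0.0316 with the block).

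**Figure D5:**
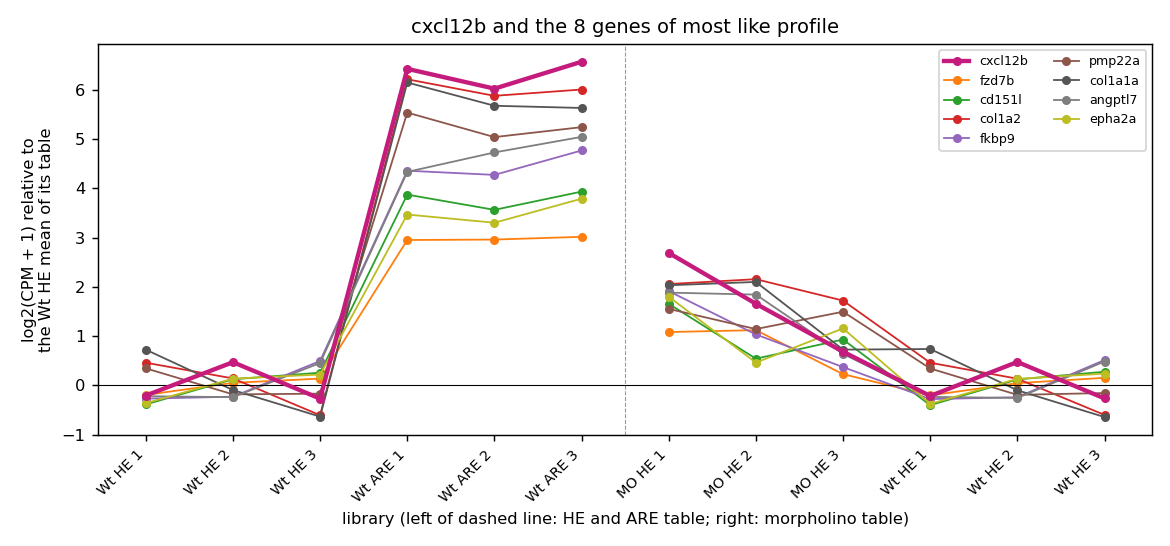
Profiles of cxcl12b (thick line) and the 8 genes of highest r over 12 values, as log2(CPM + 1) relative to the Wt HE mean of each table, with HE and ARE libraries left of the dashed line and MO and Wt libraries right of it. All 9 genes are highest in ARE, where cxcl12b is the highest line in every library, and MO replicate 1 shows the highest MO value of cxcl12b.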

How the data were processed

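RNA of sorted cells was sequenced in 21 samples (7 groups, 3 libraries each), and 15 libraries from 5 groups were used here. The authors' pipeline ran Trimmomatic 0.32 for trimming, STAR for alignment to the Zv10 genome, featureCounts for gene counts and edgeR for testing. No source states that strand was kept, so a gene and its antisense partner are not separated. The deposited CPM values were scaled by the authors to each library's effective size, and stood in 3 tables of 2732, 676 and 176 genes that list only genes the authors called. Of the deposited p-value columns only the number of genes tested was taken (10916, 11479 and 11479), and the columns of fold changes and test statistics were not used. CPM were whole multiples of 1 step (tolerance 1e-06), but too few low values were present to establish that 1 step is 1 read, so no count test was run, and read numbers, library sizes and Poisson intervals are estimates that take it as 1 read.

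log2(CPM + 1) was fitted with limma 3.58.1 in R 4.3.3 (eBayes with trend, two-sided), on each whole table, with Benjamini-Hochberg adjustment over the genes the authors tested, a threshold of 0.05 and no filter on low values. The fit was tested on simulated data. The labels do not say what a replicate number stands for, and p-values measure only the spread between libraries. Same-numbered MO and Wt DP-R1hi libraries deviated together weakly (r = 0.128, 0.313 and 0.118). MO replicate 1 did so with Wt replicate 3 as well (r = 0.118), so these values alone do not establish pairing. Since clutches were split between the injected and the non-injected arm, blocked values are given for MO against Wt where they change a call. For HE against ARE, blocked values are given for cxcr4b and cxcr3.2. cxcl12b, the marker and pathway lists and the tests were chosen with earlier results of these data known. Named were cxcl12b, listed chemokine genes, the 8 genes of most like profile, the 5 largest falls, the neighbours of cxcl12b in the order and up to 4 genes of largest difference per list; gfi1aa, kdrl, dll4, krt4, sox17 and several others were named after their values were seen. Pseudocounts, rescaling, a minimum level, the block, adjustment over listed genes alone and leaving out each library were tried as alternatives. Values of runx1 are not reported here.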

Additional observations from a re-analysis of the deposited data

How the results depend on the processing

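Direction of the cxcl12b difference held under every alternative run, which is no independent support. cxcl12b was chosen for these differences and its groups did not overlap, so a pseudocount or a left-out library could not turn the sign. HE minus ARE was -6.34 and became -6.85 with a pseudocount of 0.1, -5.15 with a pseudocount of 5 and -5.60 after rescaling by median ratios, and lay between -6.57 and -6.20 with each library left out. MO minus Wt was 1.68, and became 2.01 with a pseudocount of 0.1, 1.02 with a pseudocount of 5 and 1.03 after rescaling. It lay between 1.17 and 2.17 with each library left out. Rescaling moved the median of all listed genes by 0.79 (HE against ARE), -0.74 (MO, DP-R1hi) and -0.89 (DN), and changed the split of calls from 1037 higher and 1544 lower to 1099 and 819, from 178 and 102 to 56 and 237, and from 34 and 6 to 11 and 33. It turned cxcr3.2 to 0.28. The rescaling factors came from listed genes alone, all called as changed by the authors, so they had no unchanged reference. The move of the median follows from this method. A sign or call that changes under rescaling hence does not tell whether a result is unstable. The 280 calls of the MO DP-R1hi table ranged between 94 and 230 with a library left out (101, 94 and 176 without Wt replicates 1, 2 and 3), and the 40 calls of the DN table between 8 and 33 (8 without Wt-DN replicate 1 and 25 without Wt-DN replicate 3). Adjusted over the listed genes alone, 661 and 176 passed, which follows from fewer tests counted. With the replicate number as a block, 2686 genes passed for HE against ARE, 376 for MO DP-R1hi and 101 for DN. For same-numbered libraries r was 0.0942, 0.183 and 0.267 for HE with ARE, and 0.223, 0.181 and -0.0555 for DN. The labels do not tie these numbers to an experiment. Each HE library nevertheless correlated best with the ARE library of its own number. The paper describes 3 experiments in which these populations were sorted from staged embryos, so the gates may be paired by design. The main fits leave such pairing out, and the blocked counts are those given above. The block changed no call of a chemokine gene. Of the 8 genes of most like profile, 4 remained by Euclidean distance and 6 with a pseudocount of 0.1. Except where named, the cause of a change was not tested. cxcl12b in HE rests on an estimated 27 to 56 reads a library, and genes the authors did not call have no values here.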

Other observations

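The genes that flank cxcl12b were looked up by their order in the RefSeq annotation of the assembly GRCz12tu, which is not the build of the tables, so only the order was used. Of the 10 nearest genes, 5 on each side, 1 had a row for HE against ARE, and none had a row in the MO tables. That gene, si:dkey-44g23.5 (mcrip2 in RefSeq), lies 4 genes away and was higher in HE by 1.34 on the log2 scale, opposite in direction to cxcl12b.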
